A study of Mus musculus with 16 samples.

Results

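A set of 9 genes for adhesion and contact between Schwann cells and axons was followed in mouse spleen: *Lgi4*, *Adam22*, *Adam23*, *Cadm1*, *Cadm2*, *Cadm4*, *Chl1*, *Ptprz1* and *Matn2*. They were picked by symbol, and each of the 9 matched 1 row among the 54838 gene rows of the count table. RNA was sequenced from 2 kinds of spleen sample from C57BL/6 mice, with 8 samples of each. The size-selected samples, called spleen glia in the labels, were the material held back by a strainer after spleens had been digested with enzymes and red cells lysed. The whole spleen samples carry the same 8 numbers, 407, 408, 427 and 435 from males and 436, 445, 447 and 460 from females, and their own preparation is not described separately. Neither group carried a transgene or drug treatment in the labels, ages are not given there, and the size selection was not a sort on a glial marker. The comparison asked which genes are enriched in the size-selected fraction over whole spleen.

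Schwann cells are the glia of peripheral nerves, and in the spleen non-myelinating Schwann cells ensheath the sympathetic axons that follow the arteries. LGI4 is secreted by Schwann cells and binds ADAM22 and ADAM23, transmembrane members of the disintegrin and metalloprotease family that lack protease activity, and it is needed for normal axon sorting and myelination. The CADM (nectin-like) proteins are immunoglobulin-domain adhesion molecules. CADM4 on the Schwann cell pairs with CADM3 on the axon along the internode, CADM2 is known mainly from neurons and their axons, and CADM1 is also made by many other cells, mast cells and cross-presenting dendritic cells among them. CHL1 is an adhesion molecule of the L1 family, PTPRZ1 is a receptor tyrosine phosphatase that binds pleiotrophin, midkine and tenascins, and matrilin-2 (MATN2) is an extracellular matrix protein of peripheral nerve that is also made by fibroblasts.

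Library totals ran from 13119992 to 19944440 estimated counts in the size-selected samples and from 12153770 to 16282454 in whole spleen. The size-selected fraction was mixed. Summed over 12 glial markers (*Scn7a* the most abundant), the level in CPM, counts scaled to the TMM-adjusted library total, was 81.3 to 673 there against 2.44 to 11.3 in whole spleen, and 9 of 9 tested markers were higher. Summed fibroblast markers (7, *Col3a1* the most abundant) reached 1061 to 3664 CPM against 5.02 to 57.6, smooth muscle markers (5, led by *Acta2*) 765 to 3638 against 8.36 to 69.2, and endothelial markers (5, led by *Stab2*) 508 to 1343 against 76.3 to 174, with all 17 higher. Mesothelial markers (5, led by *Upk3b*) summed to 19.8 to 171 CPM against 0.229 to 2.69, all 5 higher. Some markers could pass the count filter for testing only through the size-selected samples. *Wt1*, *Upk1b*, *Cdh19* and *Fabp7*, for example, had at most 5 counts in a whole spleen library. The counts of markers called higher are therefore descriptions, beside 37.5% of all genes tested. Neuronal markers (7) summed to 13.7 to 51.5 CPM against 0 to 1.55, which was nearly all *Stmn2* (25.8 ± 12.4 against 0.345 ± 0.518, SD, n = 8 each), the only marker of the list that was tested. The other 6 averaged at most 0.164 CPM in the size-selected samples. Of these, *Th* was at 0 in all 16 libraries, and *Snap25*, *Elavl4* and *Nefl* were at 0 in 7 of 8 size-selected samples. B cell markers (4, led by *Cd79a*) fell, 4 of 4, from 3495 to 5008 CPM in whole spleen to 647 to 2422. T cell markers were lower in 3 of 4 (125 to 253 against 260 to 435 CPM), megakaryocyte markers higher in 4 of 4 (85.3 to 587 against 49.5 to 181) and erythroid markers lower in 1 of 4 (4.57 to 88.1 against 6.76 to 187). Macrophage markers summed to 1867 to 4040 against 801 to 1582 CPM, mostly *Vcam1* (2153 ± 717 against 614 ± 205, SD, n = 8 each), which stroma and endothelium also make; *Adgre1* was higher by 0.58 on the log2 scale, and the other two markers did not pass. Number 436 had the highest size-selected sum for glia and fibroblasts, and number 427 had the highest whole spleen sum for glial, fibroblast, smooth muscle, mesothelial, endothelial and neuronal markers. In bulk RNA, fewer cells of a type and less RNA per cell cannot be told apart.

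All 9 genes were higher in the size-selected samples (edgeR quasi-likelihood test, Benjamini-Hochberg adjusted p under 0.05). Of these, *Lgi4*, *Cadm2*, *Chl1* and *Ptprz1* (at most 5 counts in a whole spleen library) passed the count filter through the size-selected samples alone. *Cadm4*, with 5 counts in the whole spleen of number 408, could not pass on whole spleen counts alone either. The members were also chosen with earlier results of these data known. The count of 9, the median and the counts of separated groups and of pairs given here are therefore descriptions. The background was large: 37.5% of the 14510 genes tested were called higher and 30.4% lower. The median log2 fold change was 5.91 over the 9 genes and 0.05 over all genes tested. For 7 of the 9, every size-selected value lay above every whole spleen value, as it did for 23.3% of genes tested. For 8 of the 9, the size-selected sample was higher in all 8 same-numbered pairs, against 31.3% of genes tested. The genes fell into a group of 6 with log2 differences of 3.82 to 8.53 (*Cadm4*, *Matn2*, *Lgi4*, *Chl1*, *Ptprz1* and *Cadm2*) and a group of 3 with 0.97 to 1.47 (*Cadm1*, *Adam22* and *Adam23*). Among all genes tested, 25.3% had a larger log2 fold change than *Cadm1*, 19.9% than *Adam23*, 8.81% than *Cadm4* and 2.79% than *Matn2*.

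**Figure D1:**
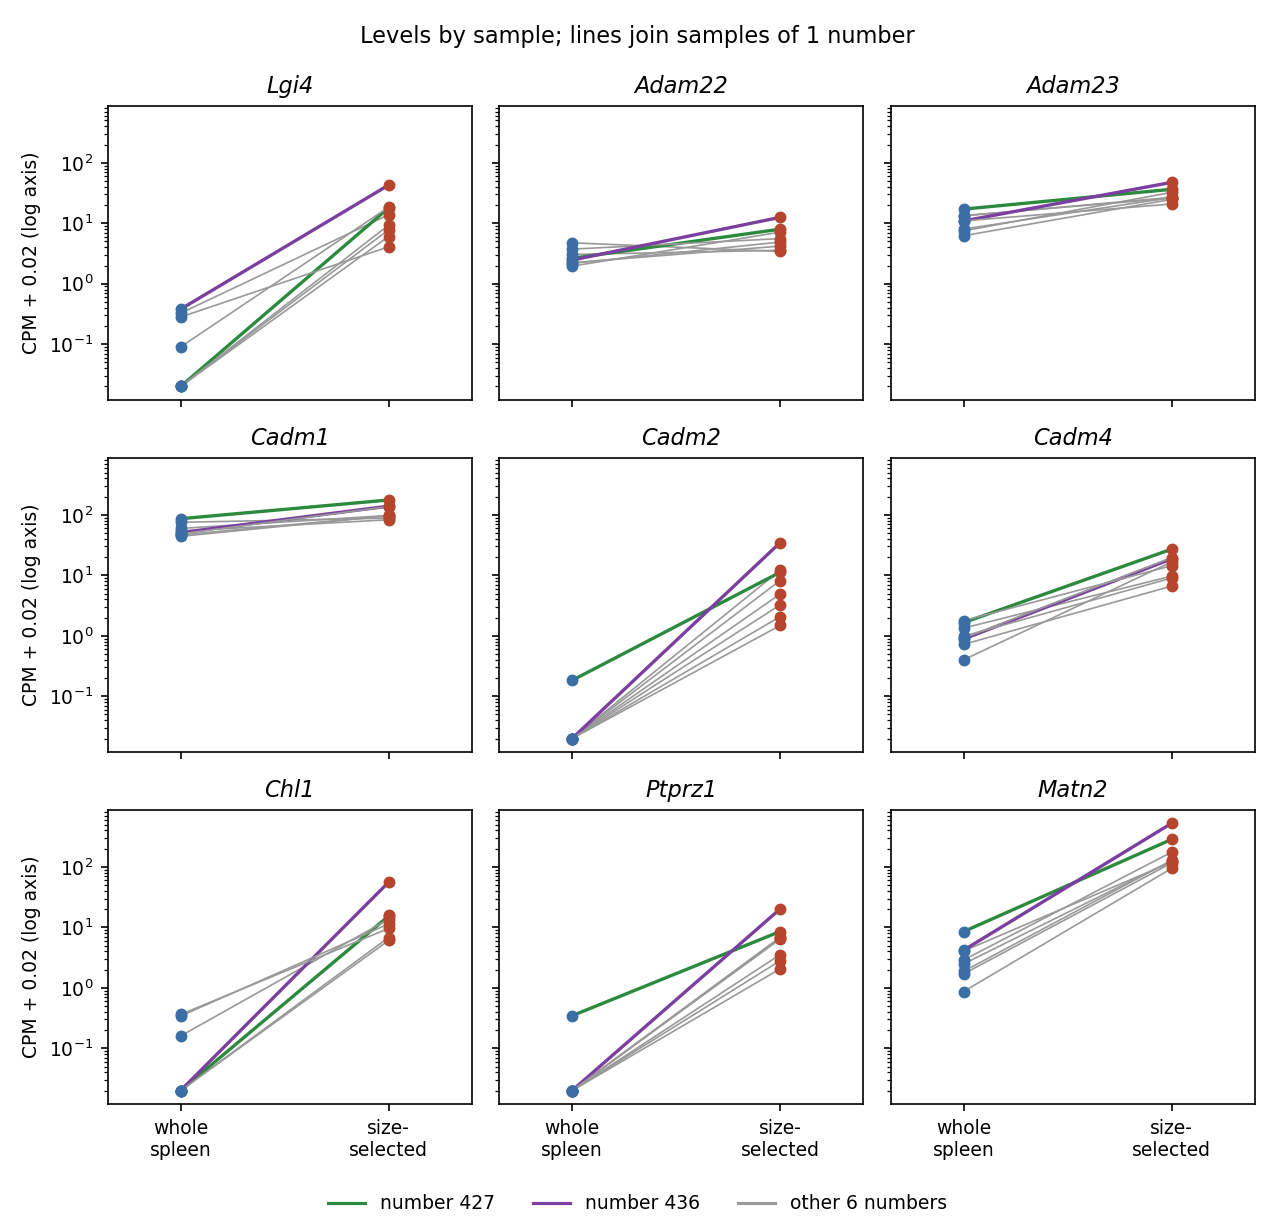
Level of each of the 9 genes in every sample, as CPM plus 0.02 on a log axis (points; 8 whole spleen in blue, 8 size-selected in red), with lines joining samples of the same number. *Cadm2* and *Ptprz1* were at 0 in 7 of 8 whole spleens, all but number 427, whereas *Cadm1* and *Adam22* overlapped between the groups.

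The ligand gene *Lgi4* (ENSMUSG00000036560; GRCm38, chromosome 7, 31059342 to 31070935, plus strand) was close to absent from whole spleen. Size-selected CPM was 4.06 at the lowest (447), 11.6 at the median and 42.7 at the highest (436). In whole spleen it was 0 in 4 libraries and 0.359 at the highest, from at most 5 counts in a library. No values overlapped, and the lowest size-selected sample was above 10 times the highest whole spleen sample. The means were 15 ± 12.4 CPM (SD, n = 8) and 0.124 ± 0.157 (SD, n = 8). The ratio of pooled CPM, summed counts over summed scaled totals, was 123 (exact 95% interval 73.2 to 226, counting error only), and the fitted log2 fold change was 6.81 (SE 0.66, adjusted p = 4.26e-08). *Lgi4* shares 2059 bases of annotated exon with *Fxyd3*, which lies on the opposite strand and encodes a regulator of the sodium pump. The estimated counts of the pair added up to whole reads (within 0.005) in 16 of 16 libraries, while the *Lgi4* count alone was not whole in 9, so reads were divided between them. Without strand information, which is not given in the sources used here, how much belongs to each cannot be told. *Lgi4* took 41.5 to 80.6% of the sum in the size-selected samples. The pair summed gave 21 ± 14.3 CPM (SD, n = 8; lowest 9.13) against 0.263 ± 0.238 (SD, n = 8; highest 0.61) and a log2 difference of 6.29 between the groups (SE 0.54, edgeR adjusted p = 8.30e-09).

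The receptor genes differed far less between the groups. *Adam22* (ENSMUSG00000040537; chromosome 5, 8072352 to 8368160, minus strand) had a size-selected CPM of 3.39 at the lowest (408), 5.2 at the median and 12.5 at the highest (436). Its whole spleen CPM was 1.93 at the lowest, 2.53 at the median and 4.73 at the highest (408). The groups overlapped, and in number 408 the whole spleen sample was the higher of the pair; in the other 7 pairs the size-selected sample was higher. Its log2 fold change was 1.11 (SE 0.28, adjusted p = 0.00182). *Adam23* (ENSMUSG00000025964; chromosome 1, 63445891 to 63596276, plus strand) was the more abundant receptor. Its CPM was 20.8 at the lowest (445), 26.7 at the median and 47.4 at the highest (436) in the size-selected samples, and 6.2, 10.9 and 17.1 (427) in whole spleen. The groups did not overlap, and the log2 fold change was 1.47 (SE 0.21, adjusted p = 4.72e-06). Per exon length, *Adam23* made up 80.5 ± 3.68% of the pair of receptor transcripts in the size-selected samples (SD, n = 8; 75.3 to 86.4%) and 74.7 ± 6.79% in whole spleen (SD, n = 8; 63.3 to 84%), ranges that overlapped.

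The CADM genes split 3 ways. *Cadm1* (ENSMUSG00000032076; chromosome 9, 47530173 to 47857637, plus strand) was already abundant in whole spleen, with CPM 44.1 at the lowest, 52.4 at the median and 86.2 at the highest (427). In the size-selected samples it was 82.9 at the lowest, 97.2 at the median and 176 at the highest (427). The highest whole spleen value passed the lowest size-selected value, so the groups overlapped, although all 8 pairs were higher on the size-selected side. The log2 fold change was 0.97 (SE 0.17, adjusted p = 6.51e-05). Of 4 markers of cross-presenting dendritic cells, which also make *Cadm1*, the more specific *Xcr1* (log2 fold change -0.63, SE 0.21, adjusted p = 0.0133) and *Clec9a* (-1.15, SE 0.24, adjusted p = 0.000304) were lower in the size-selected samples and *Batf3* was higher (0.84, SE 0.29, adjusted p = 0.0152). The summed level, 453 to 605 CPM against 451 to 626 in whole spleen, was nearly all *Irf8* (522 ± 52.5 and 525 ± 61 CPM, SD, n = 8 each), a gene also made by B cells. Mast cell markers (5, led by *Cma1*) summed to 2.61 to 9.35 and 8.31 to 15.6 CPM (2 of 2 tested lower). The others were not tested and did not all go the same way. *Tpsb2* (mean 1.15 against 0.289 CPM) and *Mcpt4* (0.375 against 0.293) had higher means in the size-selected samples, and *Ms4a2* (0.0815 against 0.369) a lower one. The part of dendritic cells and mast cells in the *Cadm1* level was not tested.

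*Cadm4* (ENSMUSG00000054793; chromosome 7, 24482023 to 24504539, plus strand), the Schwann cell side of the internodal contact, was low but counted in every whole spleen library. Its whole spleen CPM was 0.381 at the lowest (408), 0.928 at the median and 1.76 at the highest (447). The size-selected CPM was 6.61 at the lowest (435), 15.5 at the median and 27 at the highest (427). The groups were well apart, and the fitted log2 difference was 3.82 (SE 0.33, adjusted p = 9.88e-09). *Cadm2* (ENSMUSG00000064115; chromosome 16, 66655421 to 67620908, minus strand), the neuronal and axonal family member, had 2 counts in whole spleen, both in number 427, and 0 in the other 7 libraries. Its size-selected CPM was 1.46 at the lowest (447), 6.52 at the median and 34.6 at the highest (436), from 22 to 636 counts. Every size-selected library was above every whole spleen library. The ratio of pooled CPM was 564, with a counting interval of 156 to 4663, and the fitted log2 fold change was 8.53 (SE 0.93, adjusted p = 1.84e-07).

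Per exon length the family changed in make-up. *Cadm1* was 90.8 ± 3.52% of the summed *Cadm1* to *Cadm4* level in whole spleen (SD, n = 8; 83.7 to 95.2%) and 58.2 ± 9.67% in the size-selected samples (SD, n = 8; 46.7 to 74%). *Cadm4* went from 8.27 ± 3.9% (SD, n = 8; highest 16.2%) to 35.9 ± 9.22% (SD, n = 8; lowest 23.5%). *Cadm2* made up 0.0226 ± 0.0641% in whole spleen (SD, n = 8) and 4.83 ± 4.29% in the size-selected samples (SD, n = 8; 0.923 to 13.7%). *Cadm3*, the main axonal partner of CADM4, was near 1% in both, at 0.895 ± 0.606% and 1.12 ± 0.44% (SD, n = 8 each). The ranges of the *Cadm1* and of the *Cadm4* share did not overlap between the groups. The shares follow from the differences given above and were not tested again. They depend on the transcript length used. In the authors' deposited table the mean size-selected TPM of *Cadm4* was 10.3, against a mean of 19.6 per exon length here, and that of *Cadm2* was 3.3 against 2.81. In whole spleen the authors' deposited table gave 0.593 for *Cadm4*, against 1.11 here, and 0.0187 for *Cadm2*, against 0.00489 here from 2 counts.

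**Figure D2:**
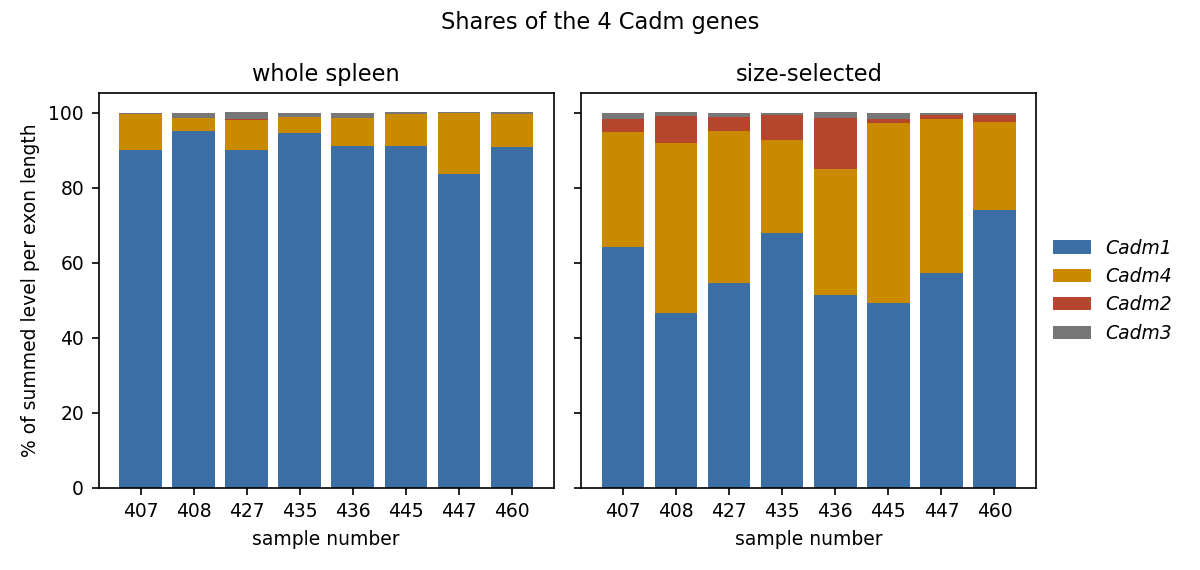
Share of the summed level per exon length held by each of the 4 Cadm genes, in percent, in each whole spleen sample (left) and size-selected sample (right), by sample number. *Cadm1* held at least 83.7% in every whole spleen and at most 74% in every size-selected sample, and *Cadm4* took 23.5 to 48% of the latter.

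*Chl1* (ENSMUSG00000030077; chromosome 6, 103510586 to 103750211, plus strand) was at 0 in 5 whole spleen libraries and at most 0.343 CPM in the others, from at most 5 counts. The size-selected CPM was 6.05 at the lowest (447), 12.5 at the median and 55.7 at the highest (436), and the next sample was at 15.9 (408). The groups were far apart, and number 436 stood alone among the size-selected samples. The ratio of pooled CPM was 164 (95% counting interval 93.5 to 317), and the fitted log2 fold change 7.20 (SE 0.68, adjusted p = 3.25e-08). Leaving out number 436 gave a log2 fold change of 6.44, and leaving out number 445 gave 7.83.

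*Ptprz1* (ENSMUSG00000068748; chromosome 6, 22875502 to 23052916, plus strand) had 4 counts in whole spleen, all in number 427, and 0 in the other 7 libraries. The size-selected CPM was 2.04 at the lowest (407), 6.49 at the median and 20.1 at the highest (436). Every size-selected library held more than the whole spleen of number 427, which was at 0.326 CPM. The ratio of pooled CPM was 207 (95% counting interval 80.8 to 763), and the fitted log2 fold change 7.32 (SE 0.74, adjusted p = 7.57e-08). All whole spleen counts of *Ptprz1* and *Cadm2* came from number 427, the whole spleen with the highest glial, fibroblast and muscle sums. Without that library the fitted log2 fold changes were 9.76 for *Ptprz1* and 10.21 for *Cadm2*; against groups with no counts these depend on the prior count and bound nothing. Leaving out number 436 gave 6.72 and 7.73, and limma-voom gave 7.15 for *Cadm2*.

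The matrix gene *Matn2* (ENSMUSG00000022324; chromosome 15, 34306677 to 34436273, plus strand) was the most abundant of the 9 in the size-selected samples. Its CPM there was 94.4 at the lowest (447), 127 at the median and 526 at the highest (436), with number 427 next at 285. In whole spleen it was 0.849 at the lowest (447), 2.67 at the median and 8.49 at the highest (427). The groups were separated by more than 10 times between the nearest samples, and the means were 196 ± 146 and 3.3 ± 2.38 CPM (SD, n = 8 each). The log2 fold change was 5.91 (SE 0.48, adjusted p = 4.71e-09). Numbers 427 and 436 were the 2 highest in both groups, and 447 was the lowest in both. *Matn2* made up 97.2 ± 1.54% of the level of the 4 matrilin genes per exon length in the size-selected samples and 95.2 ± 4.64% in whole spleen (SD, n = 8 each).

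The order of the 9 genes was compared on a scale of counts divided by exon length, with each library brought to the same total. In the size-selected samples *Matn2* led at 87.9 ± 65.4, followed by *Cadm1* at 30.6 ± 7.83, *Cadm4* at 19.6 ± 7.95, *Lgi4* at 9.24 ± 7.71, *Adam23* at 4.74 ± 1.35, *Chl1* at 3.88 ± 3.76, *Cadm2* at 2.81 ± 3.17, *Ptprz1* at 1.42 ± 1.15 and *Adam22* at 1.2 ± 0.598 (SD, n = 8 each). Of neighbours in that order, *Matn2* was above *Cadm1*, *Cadm1* above *Cadm4* and *Chl1* above *Cadm2* in 8 of 8 samples. The other steps were within the spread: *Adam23* was above *Chl1* in 7 of 8, *Cadm4* above *Lgi4*, *Lgi4* above *Adam23* and *Cadm2* above *Ptprz1* in 6 of 8, and *Ptprz1* above *Adam22* in 4 of 8. In whole spleen *Cadm1* led at 12.3 ± 3.11, and *Adam23* (1.36 ± 0.479), *Matn2* (1.19 ± 0.902) and *Cadm4* (1.11 ± 0.52) followed within their spread (SD, n = 8 each). *Adam22* came next at 0.436 ± 0.122 (SD, n = 8), and the other 4 genes were each below 0.1. The authors' deposited table of 2201 genes, whose smallest log2 fold change is 3.50, lists 6 of the 9 and leaves out *Adam22*, *Adam23* and *Cadm1*. Its mean size-selected TPM values put those 6 in the same order: 69.3 for *Matn2*, 10.3 for *Cadm4*, 5.36 for *Lgi4*, 5.3 for *Chl1*, 3.3 for *Cadm2* and 1.69 for *Ptprz1* in the authors' deposited table.

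Promoter windows from RefSeq (GRCm38.p6, from 250 bases before to 50 after the RefSeq start) were found for 6 of the 9 genes, *Adam22*, *Adam23*, *Cadm2*, *Cadm4*, *Chl1* and *Ptprz1*. Because SOX10 directs the Schwann cell programme, the windows were searched on both strands for the SOX-type letters ACAAAG or ACAATG. The windows of *Chl1* and *Cadm4* each held 1 match, and 28.6% of all 32851 windows held at least 1. Both are printed 5′ to 3′ on the gene's strand, with the match, which reads in reverse complement, in capitals; *Chl1* is chr6:103510626-103510925, plus strand, and *Cadm4* is chr7:24481773-24482072, plus strand.
Chl1: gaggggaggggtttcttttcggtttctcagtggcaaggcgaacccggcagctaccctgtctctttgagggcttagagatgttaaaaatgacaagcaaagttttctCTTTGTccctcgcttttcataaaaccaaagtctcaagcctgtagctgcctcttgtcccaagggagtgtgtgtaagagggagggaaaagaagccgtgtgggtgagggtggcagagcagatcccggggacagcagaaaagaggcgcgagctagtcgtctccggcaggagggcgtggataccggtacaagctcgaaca
Cadm4: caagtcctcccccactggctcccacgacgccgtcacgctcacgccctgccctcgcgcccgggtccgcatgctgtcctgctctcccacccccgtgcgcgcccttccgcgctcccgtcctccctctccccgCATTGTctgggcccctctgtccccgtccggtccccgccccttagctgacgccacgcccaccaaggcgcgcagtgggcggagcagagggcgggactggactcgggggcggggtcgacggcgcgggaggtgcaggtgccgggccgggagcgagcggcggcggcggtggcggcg
The capitals begin at position -145 from the *Chl1* start and -121 from the *Cadm4* start. A match describes the letters only and no binding was measured here. The same windows differed in CG dinucleotides, with 13 in *Chl1* and 40 in *Cadm4*, against a median of 7 over all windows. In 3.91% of windows there were at least 40. The 6 windows ranged from 53.7 to 77% G and C, against a median of 52.7% over all windows.

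The size-selected samples differed among themselves, and the 9 genes did not vary alike. Number 436 was the highest size-selected sample for 7 of the 9 genes, where it was highest for 10.2% of all genes tested; *Cadm1* and *Cadm4* were highest in number 427. In whole spleen number 427 was the highest for 5 of the 9, against 19.4% of all genes tested. The genes were set beside a glia score (mean log2 CPM of 9 glial markers) and a fibroblast score (mean of 7 fibroblast markers) across the 8 size-selected samples. The glia score ran from 2.71 (447) to 5.43 (436), and the fibroblast score from 6.66 (408) to 8.46 (436). Of the 18 relations computed, 11 had a Benjamini-Hochberg adjusted exact permutation p under 0.05 for Pearson's r and 3 for Spearman's rho. Among the other genes tested, outside the 9 and the score's own markers, 1.91% had an r with the glia score at or above the lowest passing member (*Adam22*, r = 0.75) and 5.95% with the fibroblast score (*Adam23*, r = 0.82). Among those called higher in the size-selected samples the shares were 3.87% and 15.3%.

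With the glia score, *Lgi4* gave r = 0.95 (exact permutation p = 0.000248, adjusted 0.00313) and rho = 0.95 (exact permutation p = 0.00114, adjusted 0.0103). *Chl1* gave r = 0.95 (exact permutation p = 0.000347, adjusted 0.00313) and rho = 0.90 (exact permutation p = 0.00456, adjusted 0.0274). Without numbers 427 and 436, the 2 samples farthest from the median score, r stayed at 0.94 for *Lgi4* and 0.92 for *Chl1*. *Matn2* gave r = 0.95 (rho = 0.83) and 0.70 without those samples, *Cadm2* r = 0.90 (rho = 0.83) and 0.79, and *Ptprz1* r = 0.89 (rho = 0.79) and 0.66. Their exact permutation p values were 0.00119, 0.00188 and 0.00288 for r (adjusted 0.0058, 0.00679 and 0.00863) and 0.0154, 0.0154 and 0.0279 for rho (adjusted 0.0554, 0.0554 and 0.0628). For the receptors the relation rested on the outer samples: r was 0.81 for *Adam23* (exact permutation p = 0.0154, adjusted 0.0277) and 0.04 without them, and 0.75 for *Adam22* (exact permutation p = 0.0291, adjusted 0.0476) and -0.08 without them. The rank correlations were 0.71 for *Adam23* and 0.57 for *Adam22* (exact permutation p = 0.0576 and 0.151, adjusted 0.115 and 0.247). *Cadm1* (r = 0.50, exact permutation p = 0.207, adjusted 0.224) and *Cadm4* (r = 0.43, exact permutation p = 0.287, adjusted 0.287) did not pass with the glia score.

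With the fibroblast score, *Cadm1* gave r = 0.90 (exact permutation p = 0.00129, adjusted 0.0058), rho = 0.95 (exact permutation p = 0.00114, adjusted 0.0103) and 0.81 without the outer samples. *Matn2* gave r = 0.86 (exact permutation p = 0.0127, adjusted 0.026; rho = 0.81, exact permutation p = 0.0218, adjusted 0.0628) but 0.08 without them. The receptors gave r = 0.83 for *Adam22* (exact permutation p = 0.00955, adjusted 0.0246; rho = 0.79) and 0.82 for *Adam23* (exact permutation p = 0.013, adjusted 0.026; rho = 0.64), and 0.39 and 0.19 without the outer samples. *Lgi4* did not pass with this score (r = 0.57, exact permutation p = 0.144, adjusted 0.185), and its r without the outer samples was -0.41. Nor did *Chl1* (r = 0.63), *Ptprz1* (0.59), *Cadm2* (0.54) or *Cadm4* (0.50), with adjusted exact permutation p of 0.15, 0.176, 0.205 and 0.224. The relations of *Matn2*, *Adam22* and *Adam23* with the fibroblast score therefore rested on numbers 427 and 436. Whether a gene's relation with the glia score differs from that with the fibroblast score was not tested.

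**Figure D3:**
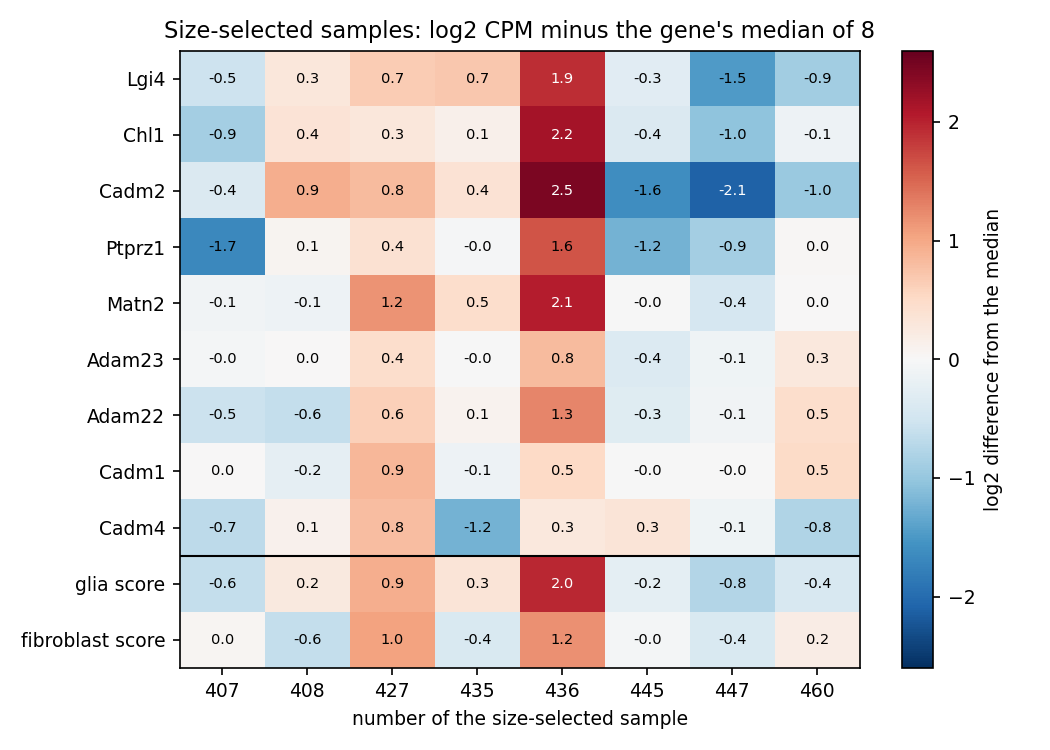
Log2 CPM of each gene (rows) in each size-selected sample (columns, by number) minus that gene's median over the 8 samples, with the glia and fibroblast scores below the line. *Lgi4*, *Chl1* and *Cadm2* follow the glia score, with number 436 highest and 447 lowest. *Cadm1* is high in 427, 436 and 460. The fibroblast score is high in 427 (8.32) and 436 (8.46), with 460 next at 7.47.

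Among 12898 genes whose log2 CPM averaged 1 or more, those whose level across the 8 size-selected samples was most like each of the 9 are given by Pearson's r, as a description over samples that share library depth and cell mixture. Those of *Lgi4* were *Plekhb1* (0.99), *Cmtm5* (0.98) and *Gpr37l1* (0.98). Those of *Chl1* were *Slc35f1* (0.98) and *L1cam* (0.97), the latter of the same family as *Chl1*. Those of *Cadm2* were the potassium channel gene *Kcna1* (0.98), *Nrn1* (0.98) and *Chadl* (0.98), and those of *Ptprz1* were *Abca8b* (0.99), *L1cam* (0.96) and the potassium channel gene *Kcna6* (0.93). *Matn2* was nearest to the matrix proteoglycan gene *Lum* (0.98), *Kctd11* (0.98) and *Abca8a* (0.98). *Cadm1* was nearest to *Nisch* (0.99), *Phactr1* (0.98) and the matrix gene *Abi3bp* (0.98). *Adam22* was nearest to *Asph* (0.98), *Gas2* (0.98) and *Ank3* (0.97), and *Adam23* to *Itih5* (0.95), *Itsn1* (0.94) and *Sorcs2* (0.94). *Cadm4* had the least close neighbours of the 9, *Acap3*, *Tmem138* and *Fzd3*, each at 0.91.

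Partners and relatives of the 9 genes were read from a list of 32, of which 18 passed the count filter, 15 were called higher and 1 lower. Of all genes tested, 37.5% were called higher and 30.4% lower. Several of the 18, among them *Lgi2*, *Ncam1*, *Nfasc*, *Ptprg*, *Ptn*, *Mdk* and *Tnc*, could not pass the filter on whole spleen counts alone. The counts of related genes called higher are therefore descriptions. Among LGI ligands and their receptors, 3 of 3 tested were higher: *Lgi2* with a log2 fold change of 7.0 (SE 0.66), the receptor *Adam11* with 2.24 (SE 0.50) and the scaffold gene *Dlg4* with 1.81 (SE 0.30). *Lgi2* had 2 counts in whole spleen, in 1 library, so it passed the filter through the size-selected samples alone. Its fitted value without number 445 was 8.63, which depends on the prior count. *Lgi1* and *Lgi3* did not pass the filter. *Lgi3* was at 6.97 ± 5.1 CPM against 0.129 ± 0.24 (SD, n = 8 each), and *Lgi1* was at least 103-fold higher, with 0 whole spleen counts set to a floor of 3 over the group. Per exon length *Lgi4* made up 55.9 ± 17.7% of LGI transcripts in the size-selected samples, *Lgi3* 30.2 ± 19.2%, *Lgi2* 9.76 ± 4.15% and *Lgi1* 4.17 ± 3.9% (SD, n = 8 each). The share ran from 26.2 to 74% for *Lgi4* and from 7.82 to 64.3% for *Lgi3*, so *Lgi4* did not lead in every sample. It also depends on how reads were divided between *Lgi4* and *Fxyd3*.

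Of 7 partners and relatives of the CADM proteins, 4 were higher, the nectins *Nectin3* (log2 fold change 4.76, SE 0.28) and *Nectin2* (4.32, SE 0.31), *Cadm3* (1.92, SE 0.49) and *Epb41l3* (1.71, SE 0.25), which encodes a membrane-skeleton adaptor. *Nectin1* was lower by a small margin (-0.55, SE 0.24, adjusted p = 0.0471), a call lost in 11 of 18 alternatives. *Crtam*, a receptor for CADM1 on lymphocytes (-0.95, SE 0.49, adjusted p = 0.0942), and the scaffold gene *Mpp6* (0.01, SE 0.10, adjusted p = 0.921) did not pass. *Mpp6* was at 68.9 ± 12.2 and 68.3 ± 5.54 CPM (SD, n = 8 each). In the L1 and axon-glia junction list, 4 of 11 passed the filter and 4 were higher: *Ncam1* (4.85, SE 0.57), *Nfasc* (3.43, SE 0.50), *Mag* (1.72, SE 0.32) and *L1cam* (1.58, SE 0.37). Without number 435, *Ncam1* was at 5.45. The other 7 of the list were not tested. Of these, *Nrcam* was at 1.1 ± 1.01 CPM in the size-selected samples (highest 2.85) and 0.0258 ± 0.0729 in whole spleen, and *Cntn1* at 0.898 ± 0.756 (highest 2.12) and 0.351 ± 0.396 (SD, n = 8 each). *Cntn2*, *Cntn6*, *Cntnap1*, *Cntnap2* and *Gldn* were below 1 CPM in all libraries.

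Of 6 genes for the relative and ligands of PTPRZ1, 4 passed the filter and were higher. None of these 4 could pass on whole spleen counts alone. *Tnc*, *Ptn* and *Mdk* had at most 9 counts in a whole spleen library, and *Ptprg* was at 0 in 1 of them. *Tnc*, a tenascin, had 3 counts over all whole spleens and 34.5 ± 35.2 CPM in the size-selected samples (SD, n = 8), a ratio of pooled CPM of 1353 with a counting interval of 463 to 6562. Size-selected sample 436 held 118 CPM of it, and the fitted log2 fold change of 9.95 (SE 0.75) became 9.18 without number 436 and 10.98 without number 447. The close relative *Ptprg* had a log2 fold change of 6.46 (SE 0.49), pleiotrophin (*Ptn*) 6.43 (SE 0.75) and midkine (*Mdk*) 3.97 (SE 0.36). Without the whole spleen of number 427, *Ptprg* was at 7.56. With limma-voom, log2 fold changes moved by over 1.5 times in fold for 5 of the 18 related genes, to 6.02 for *Lgi2*, 2.85 for *Adam11*, 5.57 for *Ncam1*, 7.20 for *Ptprg* and 9.03 for *Tnc*, with the calls kept. *Tnr* and *Ncan*, matrix ligands known mainly from the central nervous system, were below 0.5 CPM in every library and were not tested; their means were lower in the size-selected samples, at 0.0598 against 0.126 and 0.0945 against 0.202 CPM. Of the other matrilins none passed the filter; *Matn4* was at 4.14 ± 4.06 CPM against 0.0721 ± 0.0799 (SD, n = 8 each), a ratio of 59.5 (95% counting interval 30 to 139).

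**Figure D4:**
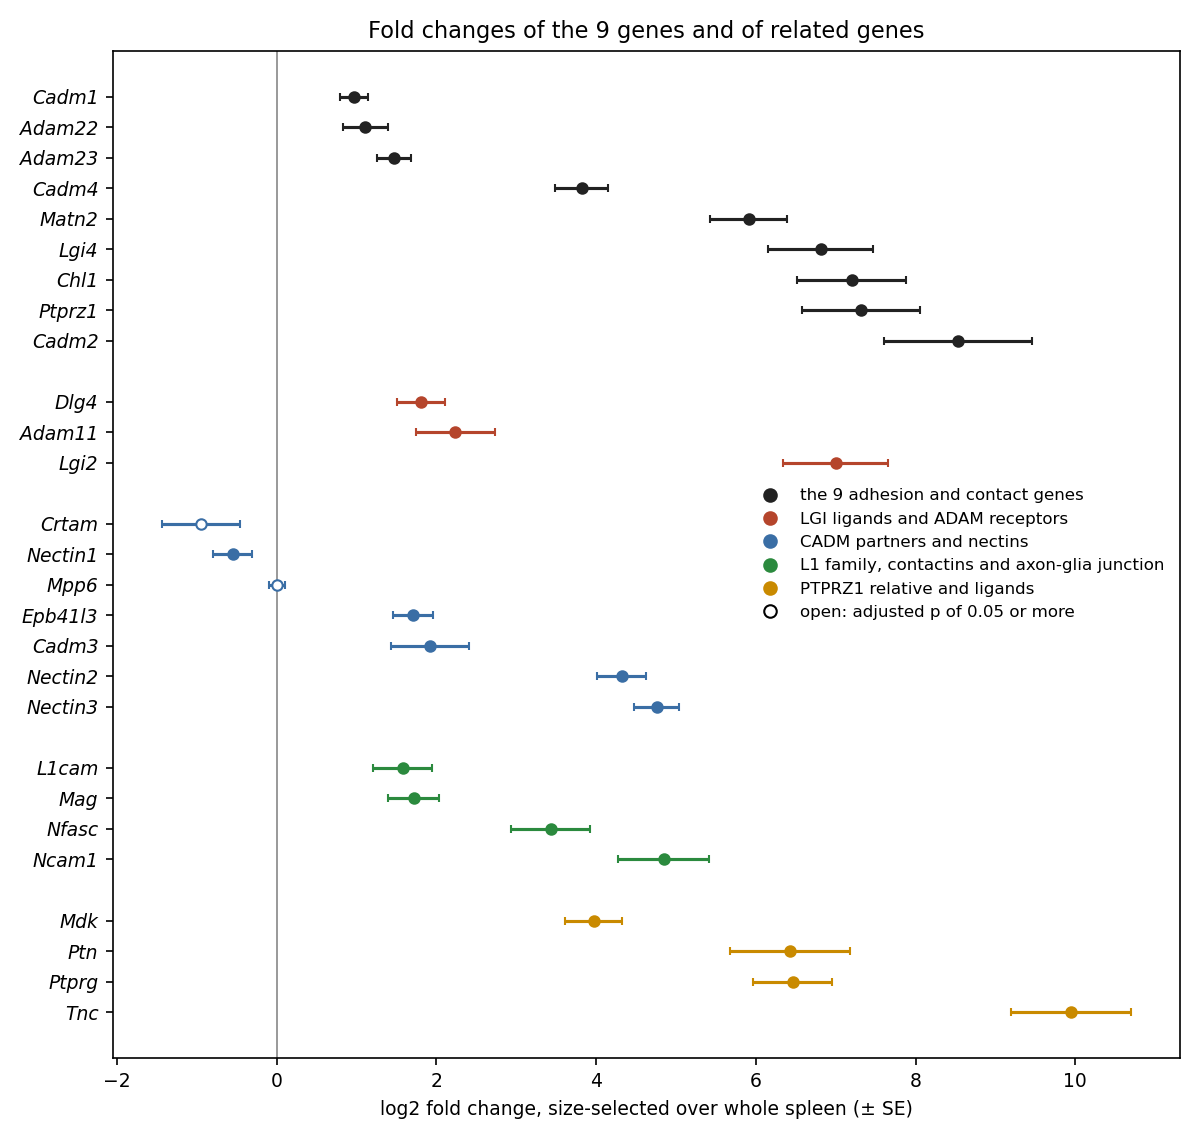
Log2 fold change, size-selected over whole spleen, of the 9 genes (black) and the 18 tested related genes (coloured by list), with bars of 1 SE; open points have an adjusted p of 0.05 or more. The 9 genes run from *Cadm1* at 0.97 to *Cadm2* at 8.53, and *Crtam*, *Nectin1* and *Mpp6* are the related genes at or below about 0.

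Males and females, 4 of each in both fractions, were compared within each fraction. No member passed in whole spleen, where 5 of the 9 were tested and 0.194% of 13383 genes were called, nor in the size-selected samples, where 9 were tested and 0.0397% of 15127 genes were called. None passed for the interaction of sex and fraction, where 0% of 15760 genes were called; at an unadjusted edgeR p under 0.05, 2, 0 and 1 of the members and 2149, 632 and 744 of all genes passed in the 3 comparisons. DESeq2 called 1, 0 and 0 of the members, and 521, 22 and 3 of all genes. The smallest p in whole spleen belonged to *Cadm1*. Its CPM was 44.1 to 50.8 in the 4 females and 53.9 to 86.2 in the 4 males (means 47.5 ± 2.87 and 68.7 ± 14.7, SD, n = 4 each). The share of all genes whose sexes lay apart in this way was not computed. The female minus male log2 difference was -0.54 (SE 0.15, edgeR adjusted p = 0.133), and DESeq2 called it at an adjusted p of 0.0296. Without number 427, the highest male, the edgeR difference was -0.41. In the size-selected samples *Adam22* had the smallest p, with 7.15 ± 3.76 CPM in females and 5.11 ± 2.13 in males (SD, n = 4 each; log2 difference 0.48, SE 0.40, edgeR adjusted p = 0.999). *Adam22* also had the smallest p for the interaction (1.17, SE 0.51, edgeR adjusted p = 1); its whole spleen CPM was 2.18 ± 0.212 in females and 3.52 ± 0.924 in males (SD, n = 4 each).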

How the data were processed

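The authors deposited 1 table of estimated counts for 54838 genes in 16 libraries; per the submitters' processing notes the tools were Trim Galore, STAR, RSEM and DESeq, on mm10, and strand settings are not given in the sources used here. In the size-selected libraries, 3898 genes carry multiplying constants, found in the values, of the 9 members *Ptprz1* alone; deposited values were used, and dividing the constants out was an alternative. The authors' deposited table of enriched genes holds log2 fold changes and group mean TPM values; its FPKM, p-value, mean normalized signal and test score columns, as the authors deposited them, were not used. Estimated counts were rounded and tested with edgeR 4.0.16 (quasi-likelihood, TMM scaling, filterByExpr minimum count 10, R 4.3.3), with group as the only term, Benjamini-Hochberg adjustment over all genes tested and a threshold of 0.05. All 9 members passed the filter. DESeq2 1.42.0 and limma 3.58.1 were alternatives. CPM values used TMM-scaled library totals; log2 CPM used a prior count of 2. Exon lengths and positions came from GENCODE M21 (GRCm38), which held 54809 of the gene IDs. Correlations over 8 samples used all 40320 orderings. Intervals and floors (3 counts) cover counting error only.

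Same-numbered samples deviated together (mean r = 0.21 across 14510 genes, 0.12 to 0.38, against -0.03 for different numbers; 8 of 8 correlated best with their own number), so the numbers, which come from the labels, pair the samples. Nothing in the labels says whether the numbers are mice, and p-values measure the spread between these samples. Unless the replicate block is named, SEs and p-values of the fraction comparison come from the model without this pairing. With the block the SE was 0.49 rather than 0.93 for *Cadm2* and 0.30 rather than 0.28 for *Adam22*. The members and lists were chosen with earlier results of these data known. The text names all members, tested related genes, the most abundant gene of a marker list and any gene called defining, the member with the smallest p in each sex comparison, and the 3 genes most like each member; some items that this rule names are not reported here.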

Additional observations from a re-analysis of the deposited data

Results flagged for a closer look

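In size-selected sample 436, *Chl1* stood far above the other 7 samples by Dixon's test at the 95% level, at a log2 CPM of 5.80 against 2.63 to 4.00. Chance marks about 1 set of values in 20, and 18 sets were screened (9 genes in each of 2 groups). The whole spleen of number 427 also stood apart for *Cadm2* (-1.76, from 2 counts) and *Ptprz1* (-1.12, from 4 counts). There the other 7 libraries had 0 counts and tie at -2.91, so any count at all would have stood apart and the test adds nothing.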

How the results depend on the processing

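The direction and call of the members' fraction differences held in 163 of 163 refits under 19 settings, the replicate block among them (9 of 9 called; *Adam22* 1.04, adjusted p = 0.00861). Among the members and related genes the block changed only the call of *Nectin1* (adjusted p = 0.0884). Calls over all genes ranged from 9249 to 10082 when single numbers or libraries were left out. In whole spleen, genes called by sex rose from 26 to 273 without the count filter and to 521 with DESeq2, which called 1 member, *Cadm1*; leaving out single numbers gave 7 to 261. In the size-selected samples DESeq2 called 22 genes, not 6. For the interaction DESeq2 and the replicate block called 3 genes each, not 0, and leaving out numbers gave 0 to 1. *Mpp6*, near 0, changed sign with RLE scaling, DESeq2, limma-voom and the replicate block (-0.00 each), without the filter (-0.05), with constants divided out (-0.04), and ranged from -0.04 to 0.05 when single numbers or libraries were left out. Counts of 0 to 5 in whole spleen limit the fold changes of *Lgi4*, *Cadm2*, *Chl1* and *Ptprz1*. Other alternatives tried after seeing the data left out whole spleen 427 or size-selected 436 alone, or summed *Lgi4* and *Fxyd3*.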
